A study of Mus musculus with 20 samples.

Results

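Interferon regulatory factors are transcription factors that share a DNA-binding domain and recognise repeats of a GAAA core in the promoters of interferons and of the genes that interferons induce. In macrophages, the lipopolysaccharide receptor Tlr4 signals through the adaptor Trif to the kinase Tbk1, which activates Irf3 and leads to production of interferon-β, and the secreted interferon then acts back on the cells through its receptor and a complex that holds Irf9. The members examined were the 8 genes *Irf1*, *Irf2*, *Irf3*, *Irf4*, *Irf5*, *Irf7*, *Irf8* and *Irf9*, chosen by name from the 24888 genes of the deposited table, and each of them was present there.

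Nascent RNA, the transcripts still attached to chromatin, was sequenced from bone-marrow-derived macrophages (BMDMs) of WT male C57BL/6 mice and of *Rel*-/- mice that lack the NF-κB subunit Rel. The study's methods and 1 entry of its reporting summary give an age of 8 to 10 weeks, and another entry of that summary gives 10 to 12. The marrow cells were differentiated for 6 days with CMG and then stimulated with lipid A, a Tlr4 ligand, for 0, 0.5, 1, 2 or 6 h. Each experiment thus rests on a mixture of cells from 2 to 4 animals. The study calls its 2 time courses per genotype independent replicates and says that both genotypes were handled side by side. With 2 replicates in each of 10 groups, 20 libraries were compared. In bulk samples, fewer cells with a transcript and less RNA per cell cannot be told apart. Levels are given as RPKM, which are reads scaled to the gene's length in kilobases and to depth. Depth was 21094000 to 37398000 reads in WT libraries and 27478000 to 45439000 in libraries labelled *Rel*-/-. The lowest value of any member, in *Irf4*, rested on 17 reads.

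*Rel* itself was 1.32 and 2.76 RPKM at 0 h, 7.48 and 20.05 at 0.5 h, 10.3 and 18.0 at 1 h, 9.74 and 11.99 at 2 h and 3.95 and 7.33 at 6 h in WT replicates 1 and 2. The libraries labelled *Rel*-/- had 2.00 and 2.79 at 0 h, 10.5 and 15.0 at 0.5 h, 15.6 and 16.2 at 1 h, 9.24 and 9.96 at 2 h and 4.22 and 4.91 at 6 h. Reads over the whole gene thus did not separate the genotypes, which are given here as labelled. Every time course responded to the ligand, since *Nfkbia*, an NF-κB target that encodes an inhibitor of NF-κB, was 4.44 and 7.75 RPKM at 0 h and 119 and 117 at 0.5 h in WT, and 2.98 and 4.31 and then 115 and 88.5 in the libraries labelled *Rel*-/-. All 9 macrophage markers examined passed the expression threshold used below, with a summed level of 47.7 to 208 RPKM per library. No marker of dendritic cells, B cells, T cells, neutrophils and their progenitors, or fibroblasts exceeded 1 RPKM in any library. Per library these markers summed to at most 0.593, 0.208, 0.323, 1.36 and 0.229 RPKM, in that order. The most abundant genes were *S100a8*, at up to 0.545 RPKM, and a dendritic cell marker at up to 0.508 RPKM.

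The WT replicates stood apart from each other. Across expressed genes, which are not independent replicates, the correlation between replicates was 0.685 to 0.875 in the WT groups and 0.925 to 0.965 in the groups labelled *Rel*-/-. At 0 h, WT replicate 2 already had high levels of interferon-induced genes, as *Mx1*, which encodes an antiviral GTPase, reached 31.4 RPKM there and 1.46 in WT replicate 1. In the libraries labelled *Rel*-/- it was 1.30 and 6.43. The median of 30 textbook targets of the factors in resting cells was 0.221 RPKM in WT replicate 1, 2.85 in WT replicate 2, and 0.267 and 0.920 in the libraries labelled *Rel*-/-. Marker sums differed at 0 h as well. In WT replicate 2 those of dendritic cells, B cells, T cells, neutrophils with progenitors, and fibroblasts were 0.339, 0.199, 0.323, 1.36 and 0.0132 RPKM, against 0.111, 0.0708, 0.0157, 0.107 and 0.00676 in WT replicate 1, 0.177, 0.208, 0.101, 0.178 and 0.0206 in replicate 1 labelled *Rel*-/- and 0.440, 0.121, 0.0285, 0.236 and 0.0395 in its replicate 2. The T cell sum, mostly *Cd4* at 0.310, and the neutrophil sum of WT replicate 2 were the highest of the 20 libraries. Macrophage markers in these 4 libraries summed to 184, 62.2, 99.5 and 79.1, in the same order. The part of these other cells in the results was not tested. At 1 h, *Mx1* was 2.31 RPKM in WT replicate 1, 112 in WT replicate 2, and 39.4 and 37.3 in the libraries labelled *Rel*-/-. The NF-κB targets *Tnf*, *Nfkbia* and *Nfkb2* were 177 and 101, 82.3 and 96.5, and 29.5 and 31.1 in these WT libraries. The share of gene reads on *Rn45s*, which encodes pre-rRNA, was 11.04 to 17.9% in the WT replicate 1 libraries and at most 6.00% in the others. Values are also given without WT replicate 2 at 0 h and WT replicate 1 at 1 h, 2 libraries left out together after the data had been seen. They cover the members' changes and genotype differences and the counts of lists other than the targets. WT replicate 1 then stands alone at 0 h and replicate 2 alone at 1 h, with a spread taken from the other groups. WT changes at 1 h thus compare single libraries of different time courses and include the gap between replicates. The part of the 2 libraries left out in the correlations over libraries was not tested.

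Changes were tested with limma on log2(RPKM + 0.1), a scale that understates the change of low genes, over the 2980 genes whose WT mean exceeded 3 RPKM at 1 or more of the 5 times. Of the 8 members, 7 passed this threshold and *Irf4* did not. An exact permutation test of 2 libraries against 2 reaches no p under 0.333 and was not used. P-values are adjusted by the Benjamini-Hochberg method over all 2980 genes. By median RPKM over the 20 libraries the order was *Irf1* (39.6), *Irf7* (19.6), *Irf5* (10.9), *Irf8* (7.77), *Irf9* (4.97), *Irf2* (4.31), *Irf3* (2.02) and *Irf4* (0.387), and the ranges of neighbours in this order overlapped.

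**Figure D1:**
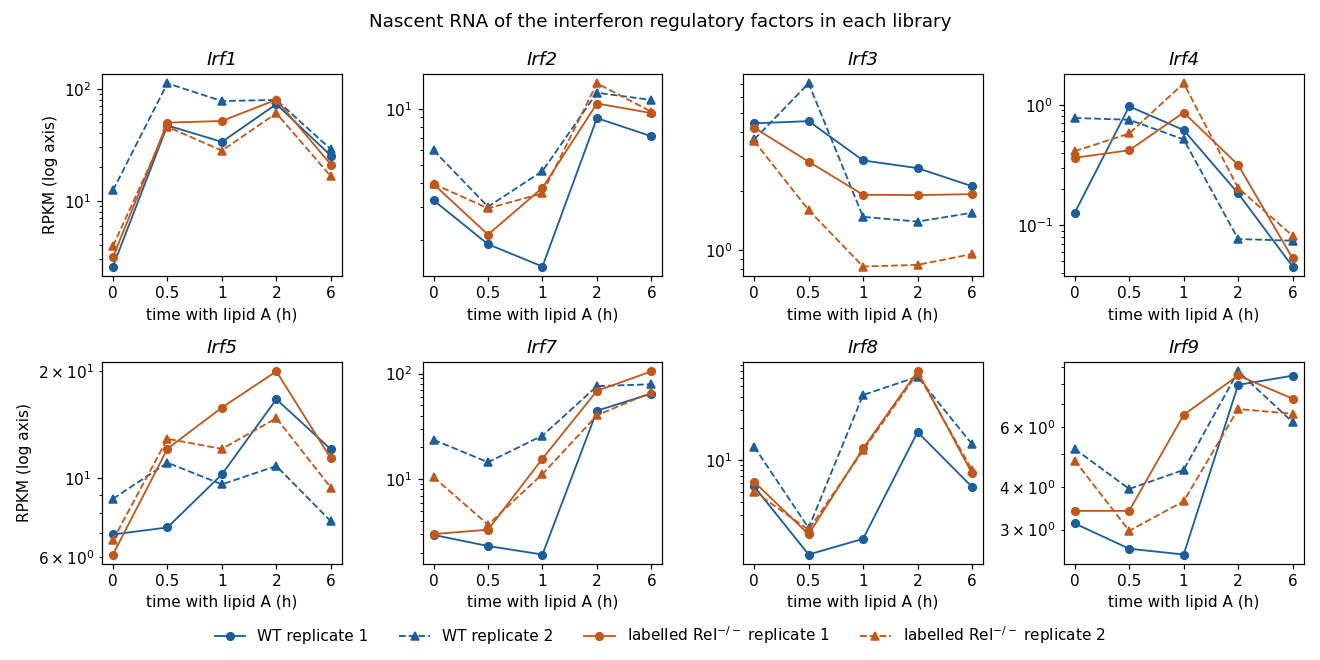
RPKM of each member (vertical log axis) against time with lipid A (horizontal axis, evenly spaced time points), with 1 line for each genotype and replicate. *Irf1* is high from 0.5 h in each line, *Irf7* and *Irf2* are highest at 2 or 6 h, *Irf3* is highest at 0 or 0.5 h, and the WT lines of *Irf8* lie far apart at 1 h, at 1.79 and 41.4 RPKM.

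*Irf3* (NM_016849, chromosome 7 from 52253018 to 52258218 of NCBIM37) encodes the factor that Tbk1 phosphorylates downstream of Tlr4 and is itself regulated mainly by that phosphorylation. It was 4.41 and 3.65 RPKM at 0 h, 4.52 and 7.04 at 0.5 h, 2.86 and 1.477 at 1 h, 2.61 and 1.40 at 2 h and 2.11 and 1.55 at 6 h in WT replicates 1 and 2. Levels in the libraries labelled *Rel*-/- were 4.19 and 3.58 at 0 h, 2.82 and 1.60 at 0.5 h, 1.91 and 0.827 at 1 h, 1.90 and 0.843 at 2 h and 1.93 and 0.957 at 6 h. From 1 h on, every library was below each of the 4 libraries at 0 h. *Irf3* fell in the libraries labelled *Rel*-/-, by 1.54 on the log2 scale at 1 h (adjusted p = 0.0351), 1.53 at 2 h (adjusted p = 0.0267) and 1.44 at 6 h (adjusted p = 0.0399). In WT the log2 differences from 0 h were −0.93, −1.03 and −1.11 at these times and did not pass (adjusted p = 0.183, 0.1203 and 0.118). Fitted with a block for replicate number, those at 2 and 6 h did (adjusted p = 0.0304 and 0.0277), and with a block for each time course so did that at 1 h (adjusted p = 0.0360). Its neighbours *Bcl2l12* and *Scaf1* lie 68 and 101 bases away in the deposited coordinates, and no source used here states if counting was strand-specific. The call at 1 h in the libraries labelled *Rel*-/- was lost without either replicate at 0 h or replicate 2 at 1 h (adjusted p = 0.0224 to 0.296 with 1 of the 4 libraries compared left out). That at 2 h was lost without either replicate at 0 h or replicate 2 at 2 h (adjusted p = 0.0190 to 0.232 with 1 of the 4 libraries compared left out), and that at 6 h was lost without either replicate at 0 h or replicate 2 at 6 h (adjusted p = 0.0477 to 0.258 with 1 of the 4 libraries compared left out). The call at 6 h was also lost with no filter on low values (adjusted p = 0.0550) and after rescaling to reads without *Rn45s* (adjusted p = 0.0542). Without the 2 WT libraries that stood apart, the WT differences at 1, 2 and 6 h were −1.52, −1.16 and −1.24 (adjusted p = 0.112, 0.151 and 0.142). *Bcl2l12* was 1.87 and 1.02 RPKM at 0 h and 0.230 and 0.0575 at 1 h in WT. Its values in the libraries labelled *Rel*-/-, where *Irf3* was called, and those of *Scaf1* are not given here.

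*Irf7* (NM_016850, chromosome 7 from 148449082 to 148452323) is an interferon-induced factor that, once phosphorylated, drives the broader production of type I interferons. In WT replicates 1 and 2 it was 2.96 and 23.6 RPKM at 0 h, 2.33 and 14.5 at 0.5 h, 1.93 and 25.9 at 1 h, 44.5 and 76.0 at 2 h and 64.6 and 79.3 at 6 h. The libraries labelled *Rel*-/- had 3.02 and 10.5 at 0 h, 3.32 and 3.71 at 0.5 h, 15.7 and 11.2 at 1 h, 68.6 and 40.2 at 2 h and 105 and 66.4 at 6 h. Each of the 4 time courses was higher at 2 and 6 h than at any earlier time, while at 0 h WT replicate 2 was above each other library. *Irf7* rose in the libraries labelled *Rel*-/- by 3.20 on the log2 scale at 2 h (adjusted p = 0.0354) and 3.86 at 6 h (adjusted p = 0.0184). In WT the differences were 2.77 (95% confidence interval 0.27 to 5.27) at 2 h and 3.07 (0.57 to 5.57) at 6 h and missed the threshold (adjusted p = 0.0665 and 0.0593), but passed it with the replicate block (adjusted p = 0.0312 and 0.0251). The call at 2 h in the libraries labelled *Rel*-/- was lost without replicate 1 at 0 h or either replicate at 2 h (adjusted p = 0.0410 to 0.217 with 1 of the 4 libraries compared left out), and that at 6 h was lost without replicate 1 at 0 h or either replicate at 6 h (adjusted p = 0.0314 to 0.140 with 1 of the 4 libraries compared left out). The call at 2 h was also lost with no filter (adjusted p = 0.0715) and after quantile normalization (adjusted p = 0.0542). Without WT replicate 2 at 0 h and WT replicate 1 at 1 h, the WT differences of *Irf7* were 3.08 at 1 h, 4.25 at 2 h and 4.55 at 6 h. That at 1 h sets replicate 2 (25.9 RPKM) against replicate 1 at 0 h (2.96 RPKM) and includes the gap between the time courses. Within them, replicate 1 went from 2.96 to 1.93 and replicate 2 from 23.6 to 25.9. The differences at 2 and 6 h set both replicates against replicate 1 alone at 0 h and include part of that gap. They were 3.86 and 4.40 within replicate 1 and 1.68 and 1.74 within replicate 2. With both libraries kept, the difference at 1 h was −0.23 (limma adjusted p = 0.895).

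*Irf5* (NM_001311083, chromosome 6 from 29476625 to 29491869) encodes a factor that acts downstream of Myd88 and drives inflammatory cytokine genes. It was 6.95 and 8.75 RPKM at 0 h, 7.27 and 11.1 at 0.5 h, 10.2 and 9.61 at 1 h, 16.7 and 10.8 at 2 h and 12.05 and 7.57 at 6 h in WT. Levels in the libraries labelled *Rel*-/- were 6.11 and 6.71 at 0 h, 12.1 and 12.9 at 0.5 h, 15.8 and 12.1 at 1 h, 19.9 and 14.7 at 2 h and 11.4 and 9.41 at 6 h. It was expressed in every resting library and stayed between 6.11 and 19.9 RPKM. *Irf5* rose in the libraries labelled *Rel*-/- by 0.95 at 0.5 h (adjusted p = 0.0436), 1.10 at 1 h (adjusted p = 0.0207) and 1.41 at 2 h (adjusted p = 0.00384). The call at 0.5 h was lost without either replicate at 0 h or either replicate at 0.5 h (adjusted p = 0.112 to 0.188 with 1 of the 4 libraries compared left out). That at 1 h was lost without either replicate at 0 h or replicate 1 at 1 h (adjusted p = 0.0476 to 0.119 with 1 of the 4 libraries compared left out), and that at 2 h was kept with any 1 of the 4 libraries compared left out (adjusted p = 0.0116 to 0.0372). The call at 0.5 h was also lost after quantile normalization, at a log2 value of 0.70 (adjusted p = 0.130), and after rescaling to reads without *Rn45s*, at 0.95 (adjusted p = 0.0533). In WT the largest difference was 0.78 at 2 h (95% confidence interval 0.07 to 1.49, adjusted p = 0.0699, and 0.0453 with a block for each time course). It was 0.94 (adjusted p = 0.0785) without the 2 WT libraries that stood apart. Its end overlaps *Tnpo3* by 1043 bases, and *Tnpo3* was 1.61 and 1.499 RPKM at 0 h and 1.62 and 1.56 at 2 h in WT.

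*Irf9* (NM_001159417, chromosome 14 from 56222822 to 56228867) encodes the DNA-binding subunit of the complex that is activated once type I interferon binds its receptor. It was 3.12 and 5.16 RPKM at 0 h, 2.64 and 3.94 at 0.5 h, 2.53 and 4.48 at 1 h, 7.95 and 8.71 at 2 h and 8.46 and 6.19 at 6 h in WT. The libraries labelled *Rel*-/- had 3.40 and 4.78 at 0 h, 3.40 and 2.97 at 0.5 h, 6.50 and 3.63 at 1 h, 8.47 and 6.76 at 2 h and 7.25 and 6.55 at 6 h. At 2 and 6 h all 8 libraries were above all 4 resting libraries. *Irf9* rose in WT at 2 h, by 1.03 on the log2 scale (adjusted p = 0.0393), and this call was lost without replicate 1 at 0 h or either replicate at 2 h (adjusted p = 0.0266 to 0.266 with 1 of the 4 libraries compared left out). It was also lost with no filter on low values (adjusted p = 0.0577) and with only the libraries of the 2 groups compared (adjusted p = 0.165). Without the 2 WT libraries that stood apart, the WT differences of *Irf9* were 1.39 at 2 h and 1.186 at 6 h. They set both replicates against replicate 1 alone at 0 h and include part of the gap between the time courses. Within replicate 1 these differences were 1.32 and 1.41, and they were 0.74 and 0.26 within replicate 2. With all libraries kept, that at 6 h was 0.83 (limma adjusted p = 0.104). In the libraries labelled *Rel*-/- the difference at 2 h was 0.89 (95% confidence interval 0.08 to 1.70, adjusted p = 0.0636, 0.0319 with a block for each time course, and 0.0361 without the 2 WT libraries). *Rnf31*, which ends 310 bases before *Irf9*, was 3.16 and 4.44 RPKM at 0 h and 15.6 and 20.3 at 2 h in WT.

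*Irf1* (NM_008390, chromosome 11 from 53583516 to 53590826) encodes an activator of interferon-induced and inflammatory genes and is itself a target of NF-κB. It was 2.59 and 12.4 RPKM at 0 h, 47.0 and 112 at 0.5 h, 33.5 and 77.6 at 1 h, 72.7 and 79.4 at 2 h and 25.3 and 28.8 at 6 h in WT. Levels in the libraries labelled *Rel*-/- were 3.14 and 3.93 at 0 h, 49.8 and 45.7 at 0.5 h, 51.5 and 28.0 at 1 h, 79.7 and 60.4 at 2 h and 21.0 and 16.5 at 6 h. Every stimulated library was above every resting library. *Irf1* rose at each time in both genotypes. In WT the log2 changes were 3.65, 3.14, 3.72 and 2.23 at 0.5, 1, 2 and 6 h, with adjusted p = 0.00086, 0.00185, 0.00051 and 0.0193. In the libraries labelled *Rel*-/- they were 3.73, 3.40, 4.27 and 2.38, with adjusted p = 0.00081, 0.00129, 0.00019 and 0.0104. Without the 2 WT libraries that stood apart, the WT changes were 4.75, 4.85, 4.82 and 3.33. They start from replicate 1 alone at 0 h, at 2.59 RPKM where replicate 2 had 12.4. These sizes thus include the gap between replicates. With only the libraries of the 2 groups compared, the WT calls at 0.5, 1 and 6 h were lost (adjusted p = 0.0912, 0.107 and 0.131). The calls in WT at 0.5, 1 and 2 h were each kept with any 1 of the 4 libraries compared left out. The adjusted p was then at most 0.0133, 0.0242 and 0.00625. The same held in the libraries labelled *Rel*-/-, at most 0.0110, 0.0162 and 0.00322. At 6 h the WT call was lost without replicate 1 at 0 h or either replicate at 6 h (adjusted p = 0.00203 to 0.208 with 1 of the 4 libraries compared left out), and the call in the libraries labelled *Rel*-/- was lost without replicate 1 at 0 h or replicate 1 at 6 h (adjusted p = 0.0392 to 0.0700 with 1 of the 4 libraries compared left out). WT replicate 2 was the highest library at 0, 0.5 and 1 h, and at 2 h the 4 libraries lay between 60.4 and 79.7 RPKM.

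*Irf2* (NR_152560, chromosome 8 from 47825099 to 47932812) encodes a relative of Irf1 that binds the same sites and can repress them. It was 3.25 and 6.01 RPKM at 0 h, 1.89 and 2.999 at 0.5 h, 1.44 and 4.65 at 1 h, 8.93 and 12.2 at 2 h and 7.14 and 11.2 at 6 h in WT. The libraries labelled *Rel*-/- had 3.96 and 3.97 at 0 h, 2.13 and 2.94 at 0.5 h, 3.79 and 3.54 at 1 h, 10.7 and 13.7 at 2 h and 9.50 and 9.66 at 6 h. In every time course it was lower at 0.5 h than at 0 h and highest at 2 h. *Irf2* rose by 1.22 at 2 h in WT (adjusted p = 0.0475). That call was lost without replicate 1 at 0 h or either replicate at 2 h (adjusted p = 0.0321 to 0.301 with 1 of the 4 libraries compared left out), and also under 5 of the 13 alternative ways of processing, over which the adjusted p ran from 0.00224 to 0.137. It rose in the libraries labelled *Rel*-/- by 1.59 at 2 h (adjusted p = 0.0138) and 1.25 at 6 h (adjusted p = 0.0459). The call at 2 h was lost without either replicate at 0 h or replicate 2 at 2 h (adjusted p = 0.0343 to 0.0898 with 1 of the 4 libraries compared left out), and that at 6 h was lost without either replicate at 0 h or either replicate at 6 h (adjusted p = 0.134 to 0.144 with 1 of the 4 libraries compared left out), and also with no filter on low values (adjusted p = 0.0596). Without the 2 WT libraries that stood apart, the WT differences of *Irf2* were 1.66 at 2 h and 1.43 at 6 h. They start from replicate 1 alone at 0 h and include part of the gap between the time courses. Within replicate 1 these differences were 1.43 and 1.11, and they were 1.01 and 0.88 within replicate 2. In the fit with all libraries the WT difference at 6 h was 1.00 (adjusted p = 0.117, and 0.0364 with the replicate block). The differences at 0.5 h, −0.86 in WT and −0.64 in the libraries labelled *Rel*-/-, did not pass (adjusted p = 0.179 and 0.324), though with a block for each time course that in WT at 0.5 h did (adjusted p = 0.0203), and so did the WT difference of −0.74 at 1 h (adjusted p = 0.0372). With the 2 WT libraries left out, these were −0.43 and 0.51. That at 1 h sets replicate 2 (4.65 RPKM) against replicate 1 at 0 h (3.25 RPKM), which are libraries of different time courses. Within each WT time course *Irf2* fell from 0 to 1 h, from 3.25 to 1.44 and from 6.01 to 4.65.

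*Irf8* (NM_008320, chromosome 8 from 123260258 to 123280592) is a lineage factor of macrophages and dendritic cells that partners with the Ets factor PU.1, encoded by *Spi1*. It was 5.62 and 13.4 RPKM at 0 h, 1.27 and 2.27 at 0.5 h, 1.79 and 41.4 at 1 h, 18.4 and 61.6 at 2 h and 5.57 and 14.2 at 6 h in WT. Levels in the libraries labelled *Rel*-/- were 6.22 and 5.03 at 0 h, 1.98 and 2.18 at 0.5 h, 12.9 and 12.3 at 1 h, 69.4 and 66.6 at 2 h and 7.50 and 8.04 at 6 h. In every time course it was lowest at 0.5 h and highest at 2 h, and at 1 h WT replicate 1 was still near its level at 0.5 h while WT replicate 2 was at 23.1 times that of replicate 1. *Irf8* rose by 3.58 on the log2 scale at 2 h in the libraries labelled *Rel*-/- (adjusted p = 0.0123), a call lost without replicate 2 at 0 h or replicate 2 at 2 h (adjusted p = 0.0490 to 0.0596 with 1 of the 4 libraries compared left out). In WT the difference at 2 h was 1.94 (95% confidence interval −0.28 to 4.17, adjusted p = 0.138, and 0.0186 with a block for each time course). At 0.5 h it was −2.28 in WT (adjusted p = 0.109, and 0.0107 with that block) and −1.38 in the libraries labelled *Rel*-/- (adjusted p = 0.334). At 1 h it was 0.01 in WT (adjusted p = 0.996). It was 1.62 without the WT time course of replicate 1 but −1.60 without that of replicate 2. Without the WT libraries that stood apart at 0 and 1 h, the WT differences of *Irf8* were −1.66 at 0.5 h, 2.86 at 1 h and 2.56 at 2 h. That at 1 h sets replicate 2 (41.4 RPKM) against replicate 1 at 0 h (5.62 RPKM) and includes the gap between the time courses. Within them, replicate 1 fell from 5.62 to 1.79 and replicate 2 rose from 13.4 to 41.4. The differences at 0.5 and 2 h set both replicates against replicate 1 alone at 0 h and include part of that gap. They were −2.06 and 1.70 within replicate 1 and −2.51 and 2.19 within replicate 2.

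*Irf4* (NM_013674, chromosome 13 from 30841102 to 30858850), a close relative of Irf8 with roles in lymphocytes and in alternatively activated macrophages, stayed at or below 1.51 RPKM, under the threshold. It was 0.127 and 0.777 RPKM at 0 h, 0.970 and 0.751 at 0.5 h, 0.616 and 0.515 at 1 h, 0.184 and 0.0768 at 2 h and 0.0454 and 0.0744 at 6 h in WT. The libraries labelled *Rel*-/- had 0.363 and 0.412 at 0 h, 0.419 and 0.577 at 0.5 h, 0.862 and 1.51 at 1 h, 0.317 and 0.204 at 2 h and 0.0531 and 0.0817 at 6 h. In all 4 time courses it was lowest at 6 h. Tested with no filter on low values, the log2 difference at 6 h from 0 h was −1.49 (adjusted p = 0.0608) in WT and −1.54 (adjusted p = 0.0367) in the libraries labelled *Rel*-/-. The values at 6 h rested on 17 and 38 reads in WT and 29 and 51 in the libraries labelled *Rel*-/-.

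Across the 7 members tested, higher calls in WT numbered 1 at 0.5 h (*Irf1*; 14.1% of all genes tested), 1 at 1 h (*Irf1*; 16.3%), 3 at 2 h (*Irf1*, *Irf2* and *Irf9*; 22%) and 1 at 6 h (*Irf1*; 15.2%). In limma without a block 0 members were called lower in WT, where 16.7, 19.9, 23.4 and 15.6% of all genes were. With the replicate block 2 were, and more of all genes as well. At an unadjusted p under 0.05, 1 member was lower at 0.5 h and 0 at the later times. In the libraries labelled *Rel*-/-, 2 members were called higher at 0.5 h (*Irf1* and *Irf5*; 13.9%), 2 at 1 h (the same 2 genes; 16.6%), 5 at 2 h (*Irf1*, *Irf2*, *Irf5*, *Irf7* and *Irf8*; 22.7%) and 3 at 6 h (*Irf1*, *Irf2* and *Irf7*; 19.5%). There *Irf3* was the 1 member called lower at 1, 2 and 6 h (17.3, 26.9 and 22.8% of all genes), and none was at 0.5 h by limma (15.6%), also at an unadjusted p under 0.05 (0 members). A single gene of 7, as was called in WT at 0.5, 1 and 6 h, is close to the share of all genes. At 0.5, 1, 2 and 6 h the median log2 difference of the 7 members was −0.31, −0.23, 1.22 and 0.83 in WT, against −0.33, −0.18, −0.21 and −0.15 for all genes tested. With the 2 WT libraries that stood apart left out it was 0.35, 0.51, 1.66 and 1.186 in WT, against −0.19, 0.05, −0.19 and −0.08. In that fit WT replicate 1 alone stands for 0 h and WT replicate 2 alone for 1 h. The positive sign at 0.5 and 1 h and the sizes at 2 and 6 h thus include the gap between replicates. In the libraries labelled *Rel*-/- the median was −0.64, 1.10, 1.59 and 0.76, against −0.28, −0.10, −0.28 and −0.18. The calls in WT were 6 of 28 tests of a member at a time, where 35.8% of all such tests of genes were called. They were 11 with the replicate block, which raised the share of all genes to 47%. More were called without the 2 WT libraries that stood apart, where the tests at 1 h compare single libraries of different time courses. They were 12 without WT replicate 1 at 1 h (41.1%), 13 without WT replicate 2 at 1 h (37.3%) and 3 without WT replicate 1 at 0 h (26%). The 15 of 28 in the libraries labelled *Rel*-/-, beside 38.9% of all, were 5 or 7 without replicate 1 or 2 at 0 h (21.2 and 24.7%), 9 without replicate 2 at 2 h (32.2%) and 16 without the 2 WT libraries that stood apart (45.6%).

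The comparison of genotypes asks whether the absence of Rel alters transcription of the factors. No member differed between genotypes in limma without a block at 0, 0.5, 1, 2 or 6 h. Of all genes tested, 0, 0.134, 0.973, 0.839 and 0.0336% did. In the mean over the 5 times no member differed in this fit either, where 6.58% of all genes did. At an unadjusted p under 0.05, 1 of 7 members, *Irf3*, differed at 0.5 h and 1, again *Irf3*, in the mean over times. At 0.5 h *Irf3* was 4.52 and 7.04 RPKM in WT and 2.82 and 1.60 in the libraries labelled *Rel*-/-, and the log2 difference was −1.37 (95% confidence interval −2.49 to −0.25, adjusted p = 0.511). In all 10 pairs with the same replicate number and time, the library labelled *Rel*-/- had the lower *Irf3* level. These pairs are the 5 times of the same time courses and are not independent. At 0 h they differed by only −0.07 and −0.03 on the log2 scale. The libraries of the genotypes overlapped at 0, 1, 2 and 6 h. How many other genes were lower in all pairs was not counted. Its mean difference over the 5 times was −0.60 (−1.10 to −0.10), with an adjusted p of 0.145, and 0.0317 with the replicate block. The mean differences of the others were −0.47 (−1.08 to 0.14) for *Irf1*, 0.14 (−0.31 to 0.59) for *Irf2*, 0.23 (−0.09 to 0.54) for *Irf5* and 0.06 (−0.30 to 0.42) for *Irf9*. For *Irf7* and *Irf8*, whose WT replicates were far apart, they were −0.07 (−1.18 to 1.05) and 0.20 (−0.80 to 1.193). Differences of up to these bounds remain possible. Without WT replicate 2 at 0 h and WT replicate 1 at 1 h, no member was called either, in limma, at any time or in the mean. With 1 whole WT time course left out, the direction of some differences turned with the time course kept. Each WT group is then a lone library and the spread comes from the libraries labelled *Rel*-/-, so only sizes are given. For *Irf8* the mean difference was −0.76 without replicate 1 and 1.15 without replicate 2. For *Irf7* it was −1.10 and 0.96. The mean difference of *Irf1* was −0.97 without replicate 1 and 0.02 without replicate 2, and that of *Irf2* was −0.28 and 0.56. *Irf8* at 1 h was −1.71 and 2.75 in these fits, and at 2 h it was 0.14 and 1.88.

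**Figure D2:**
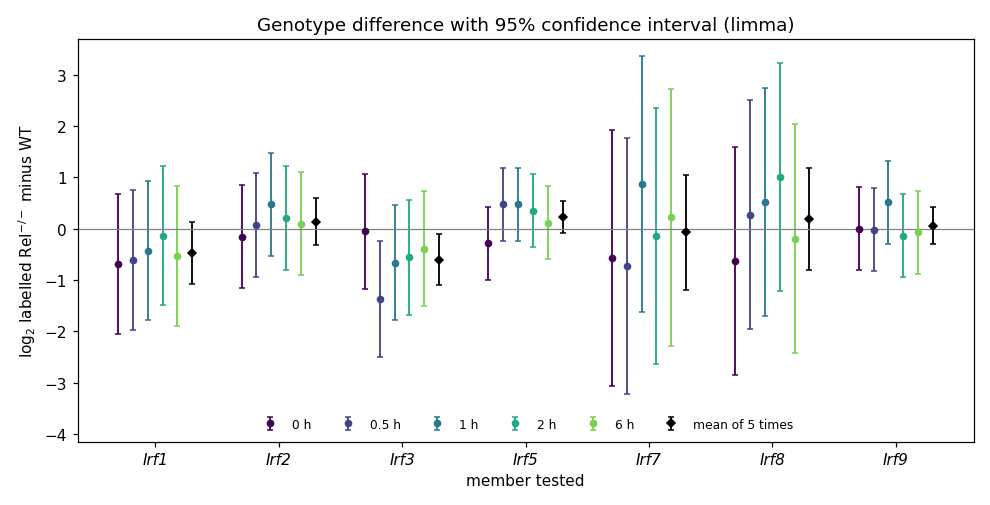
Log2 difference between the libraries labelled *Rel*-/- and WT (vertical axis) for each member tested (horizontal axis), at each time and averaged over the 5 times (black diamonds), with bars for the 95% confidence interval from limma. The intervals of *Irf7* and *Irf8* are the widest, and that of *Irf3* at 0.5 h, −2.49 to −0.25, lies below 0.

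That a member was called in the libraries labelled *Rel*-/- and not in WT does not show that its induction differed. The test of that difference called no member and no other gene at 0.5, 1, 2 or 6 h in limma (0% of all genes tested at each time), while 79, 103, 85 and 44 genes, none of them a member, had an unadjusted p under 0.05. *Irf5* was called in the libraries labelled *Rel*-/- at 3 times and in WT at none. Its difference of induction was 0.76 (−0.25 to 1.76) at 0.5 h, 0.75 at 1 h and 0.63 (−0.37 to 1.64) at 2 h. For *Irf8* at 2 h it was 1.64 (−1.52 to 4.79). At 1 h it was 1.15 (−2.003 to 4.30) for *Irf8*. This difference was 2.75 without the WT time course of replicate 2 and −0.46 without that of replicate 1, with a lone library in each WT group. With the 2 WT libraries that stood apart left out it was −1.70 (adjusted p = 0.551), and no member was called.

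The members differed in which genes they resembled over the 20 libraries, as described by Pearson's r of log2(RPKM + 0.1); the libraries share time points and time courses, so no p is given. *Irf7* was closest to *Phf11d* (0.982), *Oas1b* (0.979) and *Ddx58* (0.975), which include the interferon-induced RNA sensor Rig-I (*Ddx58*). *Irf2* was closest to *Xrn1* (0.985), *Epsti1* (0.983) and *Pml* (0.982), and *Irf9* to *H2-T9* (0.951), *H2-T22* (0.951) and *Samhd1* (0.934); *H2-T9* and *H2-T22* overlap in the deposited coordinates. *Irf1* was closest to *Slc2a6* (0.947), *Nfkb2* (0.943) and *Clic4* (0.937), of which *Nfkb2* encodes an NF-κB subunit. The most similar were *Zbtb5* (0.942), *Crlf3* (0.937) and *Rnf139* (0.932) for *Irf8*. They were *Rab12* (0.830), *Mtmr14* (0.796) and *Mir7043* (0.787) for *Irf5*, and *Mrpl24* (0.907), *Hyi* (0.892) and *Commd4* (0.852) for *Irf3*. Among the members, r was 0.931 for *Irf7* with *Irf9*, 0.912 for *Irf2* with *Irf7* and 0.894 for *Irf2* with *Irf9*. That of *Irf1* with *Irf2* was 0.137, and *Irf3* was negative with each of the 6 other members tested, from −0.575 to −0.293.

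The genes that activate the factors were read from a list of 15 genes of the Tlr4 and Trif arm, of which 11 passed the threshold. Of all genes tested, 14.1, 16.3, 22 and 15.2% were called higher at 0.5, 1, 2 and 6 h in WT and 13.9, 16.6, 22.7 and 19.5% in the libraries labelled *Rel*-/-. Of the Tlr4 and Trif arm, 3, 4, 4 and 3 genes were called higher at these times in WT and 4, 5, 3 and 4 in the libraries labelled *Rel*-/-, or 4, 5, 4 and 4 and 4, 6, 3 and 5 without the 2 WT libraries that stood apart. They were led at 0.5 h by *Cd14*, the co-receptor of Tlr4, at 3.11 and 2.92 on the log2 scale, and *Tank*, a Tbk1 adaptor, at 3.04 and 3.19. Called lower were *Tlr4* in WT at 0.5 h (−1.52), *Irak1* in WT at 6 h and in the libraries labelled *Rel*-/- at 1 h, *Traf3* at 2 h in both (−1.84 and −2.098), and *Irak1*, *Traf3* and *Ikbkb* in the libraries labelled *Rel*-/- at 6 h. *Traf3* was also called higher in the libraries labelled *Rel*-/- at 1 h (1.68). The higher call of *Ticam1*, which encodes Trif, at 1 h in WT was lost without the 2 WT libraries (adjusted p = 0.376). Lower calls without the 2 WT libraries numbered 0, 1, 1 and 1 in WT, against 1, 0, 1 and 1 with them, and 1, 1, 1 and 3 in the libraries labelled *Rel*-/-, against 0, 1, 1 and 3. *Tlr4* in WT at 0.5 h (adjusted p = 0.156) and *Traf3* in the libraries labelled *Rel*-/- at 6 h (adjusted p = 0.0513) were lost, while *Irak1* in WT at 1 h and *Tlr4* in the libraries labelled *Rel*-/- at 0.5 and 6 h were added. The median of this list was 0.50 in WT and 0.51 in the libraries labelled *Rel*-/- at 0.5 h, and 0.58 and 1.02 at 1 h. It was 0.66 and 0.45 at 2 h, and 0.52 and −0.15 at 6 h, in the same order. Without the 2 WT libraries the WT values were 0.67, 0.70, 0.83 and 0.64 at 0.5, 1, 2 and 6 h. All 10 listed genes of type I interferon signalling were tested, and 2, 2, 6 and 7 were called higher in WT and 2, 3, 6 and 6 in the libraries labelled *Rel*-/-, or 2, 6, 5 and 7 and 2, 5, 6 and 6 without the 2 WT libraries. The phosphatase gene *Ptpn6* was called lower at 0.5 h in both and at 1 h in WT, and higher at 6 h in WT (0.86). Its lower call at 1 h in WT was lost without the 2 WT libraries (adjusted p = 0.0815), where *Ptpn6* at 1 h and *Stat2* at 0.5 h were called lower in the libraries labelled *Rel*-/-. The median at 2 h was 1.38 in WT and 1.64 in the libraries labelled *Rel*-/-. In WT it was 1.90 without the 2 WT libraries, where both replicates are set against replicate 1 alone at 0 h. That value includes part of the gap between the WT replicates, so the order of the genotypes cannot be read from it. *Ifnb1*, which encodes interferon-β, was higher at 0.5, 1 and 2 h, by 6.13 in WT and 6.54 in the libraries labelled *Rel*-/- at 1 h, with its WT call at 2 h lost without the 2 WT libraries, at 2.33 (adjusted p = 0.116). The feedback inhibitor *Socs3* was higher by 6.28 and 7.44 at 2 h. In the mean over times, *Tlr4* was higher in the libraries labelled *Rel*-/- by 1.11 (adjusted p = 0.0130) and *Ifnar1*, an interferon receptor subunit, by 0.88 (adjusted p = 0.00466), while *Ikbkb*, an NF-κB kinase gene, differed by −0.66 (adjusted p = 0.00581). These 3 calls were kept without the 2 WT libraries (adjusted p = 0.0123, 0.00675 and 0.0182), and *Ifnar1* was called at 0.5 h as well, at 1.65 (adjusted p = 0.0483).

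Of 15 partners and corepressors of the factors, 10 passed the threshold. At 0.5, 1, 2 and 6 h, 1, 3, 6 and 4 were called higher in WT and 3, 3, 4 and 5 in the libraries labelled *Rel*-/-, or 1, 5, 6 and 5 and 3, 4, 5 and 6 without the 2 WT libraries that stood apart, beside the shares of all genes given with the Tlr4 and Trif arm. The list median at 2 h was 1.57 in WT, or 1.93 without the 2 libraries, and 1.30 in the libraries labelled *Rel*-/-. *Batf2*, at 4.21 and 5.52, and *Batf*, at 2.95 and 3.33, encode basic leucine zipper partners of Irf4 and Irf8. *Irf2bp2*, which encodes a corepressor that binds Irf2, was the 1 gene called lower at 2 h, as it was at 6 h in both genotypes and at 1 h in WT, at −5.03 and −5.34 at 2 h. *Ep300*, a coactivator gene, was called lower at 0.5 and 1 h in both. With the 2 WT libraries left out, the lower call of *Irf2bp2* at 1 h in WT was lost (adjusted p = 0.142), as were the higher calls of *Ets2* and *Spi1* there (adjusted p = 0.126 and 0.156), and *Ikzf1* and *Nmi* were called lower at 0.5 h in the libraries labelled *Rel*-/-. Of 30 textbook targets, 28 passed, and 8, 15, 22 and 15 were called higher at 0.5, 1, 2 and 6 h in WT and 5, 16, 24 and 21 in the libraries labelled *Rel*-/-. Without the 2 WT libraries that stood apart, more targets were called higher at each time in both genotypes. In that fit the WT changes start from replicate 1 alone, and that at 1 h sets it against replicate 2 alone. The target medians of these replicates in resting cells were 0.221 and 2.85 RPKM, so its WT counts include the gap between them. Called lower were *Psmb8* and *Psmb9*, immunoproteasome genes, at 0.5 h in WT and *Psmb9* in the libraries labelled *Rel*-/-. *Psmb8* was called higher at 2 h in both (2.099 and 2.27). With the 2 WT libraries left out, the lower call of *Psmb8* in WT was lost (adjusted p = 0.126), and *Psmb8*, *Psmb9* and *Tap1* were called lower at 0.5 h in the libraries labelled *Rel*-/-. The median of the targets at 2 h was 4.31 in WT and 4.87 in the libraries labelled *Rel*-/-. It was 5.51 in WT with the 2 WT libraries left out, above that of the libraries labelled *Rel*-/-. That value, too, includes part of the gap between the WT replicates. The chemokine gene *Ccl5* led at 2 h, at 8.54 and 8.998. Between genotypes 2 targets were called, *Il12b* at 2 h, at −4.73 (adjusted p = 0.0466) and in the mean over times at −3.08 (adjusted p = 0.00172), and *Ebi3* in the mean at −1.02 (adjusted p = 0.0435). The call of *Il12b* at 2 h was lost without the 2 WT libraries (adjusted p = 0.0692). Those in the mean were kept (adjusted p = 0.00858 and 0.0413), and *Il27* was called as well, at −0.74 (adjusted p = 0.0350).

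Promoters of 300 bases, from 250 before to 50 after the start, were taken from RefSeq on GRCm38.p6 for all 8 members (11 promoters, as *Irf1*, *Irf8* and *Irf9* have 2 each), and each matched 1 place in NCBIM37, whose positions are given. Both strands were searched for the κB motif and for GAAA, 2 bases and GAAA, which is the core of the element bound by interferon regulatory factors. The κB motif was in the promoters of *Irf1* and *Irf2* and in 8.46% of the 32851 promoters of the table. The GAAA repeat was in that of *Irf2* and in 3.44% of all. In *Irf1* the κB match has the letters that the study's supplement lists for this gene and lies at chr11:53583503-53583512. A match is a run of letters and not evidence of binding. The WT mean of *Irf1* was highest at 0.5 h through WT replicate 2, while each other time course was highest at 2 h. *Irf2* was highest at 2 h in every time course. The 2 promoters with a match are shown 5′ to 3′ with all matches in capitals.
*Irf1*, chr11:53583266-53583565, plus strand: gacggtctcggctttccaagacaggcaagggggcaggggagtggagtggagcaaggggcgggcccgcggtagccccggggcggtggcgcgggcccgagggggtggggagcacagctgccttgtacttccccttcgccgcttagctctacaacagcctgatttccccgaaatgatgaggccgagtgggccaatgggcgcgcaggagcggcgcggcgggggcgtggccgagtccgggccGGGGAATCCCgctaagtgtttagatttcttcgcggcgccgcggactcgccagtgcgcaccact
*Irf2*, chr8:47824849-47825148, plus strand: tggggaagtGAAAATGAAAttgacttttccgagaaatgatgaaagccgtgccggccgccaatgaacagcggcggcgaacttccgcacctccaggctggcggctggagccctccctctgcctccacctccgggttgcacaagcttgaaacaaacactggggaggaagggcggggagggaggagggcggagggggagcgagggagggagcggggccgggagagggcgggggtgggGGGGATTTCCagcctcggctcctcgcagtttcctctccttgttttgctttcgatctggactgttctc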

How the data were processed

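The authors aligned nascent transcript reads to NCBIM37 (mm9) with HISAT and counted them per gene in SeqMonk; the submitters' processing notes name HISAT2 and SAMtools. The deposited RPKM divide the counts by depth and gene length. RPKM multiplied by the span from start to end gave whole reads within 0.02 of a read in 100.0% of the values that came to 300 reads or fewer, in all libraries, and from these depth was recovered. No value lay below 1 read, and how genes without reads were treated is not given in the sources used here. Gene starts are counted from 1.

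Conditions and replicate numbers come from the labels. The members and lists were chosen with earlier results of these data known. Values were log2(RPKM + 0.1), and a gene was tested if its WT mean passed 3 RPKM at some time. limma 3.58.1 in R 4.3.3 fitted 1 mean for each of 10 groups, with eBayes and a trend, 10 residual and 3.14 prior degrees of freedom, and two-sided tests adjusted by Benjamini-Hochberg at 0.05. DESeq2 and edgeR, which take raw counts, were not used. Across genes, deviations of same-numbered libraries from their group means correlated at 0.136 to 0.472 between genotypes at the 5 times. The main fit has no block and thus leaves this pairing out. A fit with the replicate number as a block was run beside it. Values with that block are given where they change a call of a member. For list genes they are not given. Over all genes tested, the block raised the calls in the mean genotype difference from 196 to 386. Within a time course these correlations were 0.448 to 0.779 in WT and 0.125 to 0.598 in the libraries labelled *Rel*-/-, and a block for each time course was also fitted. The fit shares 1 estimate of spread over groups whose replicates differ more in WT.

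Genes named are the members, *Rel* and NF-κB genes, list genes with the largest changes among those called or called between genotypes, the 3 genes most like each member, and the most abundant markers; *Mx1*, *Rn45s*, *Rnf31*, *Bcl2l12*, *Scaf1*, *Tnpo3*, *S100a8*, *Cd4*, and the list genes called lower, or called or lost without the 2 WT libraries were named after values were seen. Python 3.11.15 (pandas 2.3.3, numpy 2.4.6, matplotlib 3.10.9) was used for motifs, levels and plots. The fit was also run on simulated data, and no result of that run is given here. Alternatives were other pseudocounts, thresholds, scalings, blocks and libraries left out. The planned description of the proteins was not run, and 1 planned list gene and 1 planned motif are not reported.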

Additional observations from a re-analysis of the deposited data

Results flagged for a closer look

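The difference of *Irf3* between 0 and 0.5 h of lipid A had opposite signs in the genotypes. Within WT replicates 1 and 2 its log2 change in RPKM from 0 to 0.5 h was 0.04 and 0.95, so that WT replicate 1 hardly moved, and within replicates 1 and 2 of the libraries labelled *Rel*-/- it was −0.57 and −1.16. The test of this difference between genotypes gave −1.32 on the log2 scale (95% confidence interval −2.90 to 0.27, limma adjusted p = 1.00, and 0.617 with a block for each time course), and it passed under no alternative tried. Among the 8 members at 4 times it was the 1 case in which both replicates of a genotype moved one way and both of the other moved the opposite way. The share of all genes with such a pattern was not counted, so the pattern is not shown to be unusual.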

How the results depend on the processing

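Counts below are of members called, summed over the times of a comparison. In WT induction the 6 calls became 10 with median ratio rescaling, 1 when each fit held only the libraries of the groups compared (fewer samples), 11 with the replicate block, 17 with a replicate block for each time course and 13 without the 2 WT libraries that stood apart, an alternative chosen after seeing the data. Of all tests of genes for WT induction, 35.8% were called in the report's fit and 47, 55.1 and 38.1% in the last 3 of these. Calls lower in WT, 0 in the report, were 2 with the replicate block and 6 with the block for each time course. The mean genotype difference gave 1 call, *Irf3*, with the replicate block, and the block changed no other genotype call of a member. Leaving out 1 library or 1 whole time course gave 0 to 4 calls for the genotype difference at each time, 0 to 3 for its mean, 3 to 15 for WT induction (0 to 3 lower), 0 to 20 for induction in the libraries labelled *Rel*-/- (0 to 5 lower) and 0 to 1 for the difference of induction, the 1 being *Irf8* at 1 h without WT time course replicate 2. The highest of these counts come from leaving out a time course, except the 3 lower calls in WT, also seen without WT replicate 2 at 1 h; the 3 calls in WT induction are also seen without WT replicate 1 at 0 h. With a time course left out, the spread rests on the replicates of the other genotype and lone libraries are assumed to vary like them. Without WT replicate 1, *Irf1* and *Irf8* were called lower in the libraries labelled *Rel*-/- at 0 h; without WT replicate 2, *Irf2*, *Irf7* and *Irf8* were called higher there at 1 h, and the called direction for *Irf8* (at 1 h and in the mean over times) and *Irf7* (in the mean) turned with the WT replicate kept. Median ratio rescaling moved the median log2 change of all genes by up to 0.22 (at 2 h, labelled *Rel*-/-). Among genes called in the mean genotype difference, 57.7% were higher, against 44.8% after median ratio rescaling and 42.3% after rescaling to reads without *Rn45s*. No member's change called in the report's fit without a block changed its sign under an alternative. The change of *Irf2* in WT at 1 h was called lower with the block for each time course. Its sign was positive without the 2 WT libraries that stood apart, where single libraries of different time courses were compared. With 2 replicates a group, a difference that was not called is not shown to be absent, and the intervals give its possible size. The members tested had at least 143 reads in each library.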
